A study of Mus musculus with 12 samples.

Results

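IGF signaling and the IGF binding proteins were followed as 10 mouse genes of 24346 with values, chosen by symbol: the ligand Igf1, its receptor Igf1r, the adaptor Irs1, the binding proteins Igfbp2, Igfbp3, Igfbp4, Igfbp5, Igfbp6 and Igfbp7, and the protease Pappa. Bulk RNA-seq was done on established mouse fibroblast lines, with 3 libraries in each of 4 groups. The groups were NIH-3T3 embryonic fibroblasts (NIH/Swiss) with SHHN, NIH-3T3 with vehicle (called control), MLg newborn lung fibroblasts (ddY) with SHHN, and MLg with vehicle. SHHN is a recombinant form of the signaling protein Sonic hedgehog and was given at 1 µg/ml for 48 h. All 4 groups shared the low serum of 0.5% FBS and a start at 85% confluence, and the lines had been grown before in different sera, FBS for MLg and bovine calf serum for NIH-3T3. Each kind of fibroblast is 1 line, so age, tissue and strain of origin cannot be told apart. The labels do not say whether the 3 libraries of a group came from separate cultures, and the p-values measure only the spread between these libraries.

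IGF1 and IGF2 are secreted growth factors that bind the IGF1 receptor, a tyrosine kinase, which acts through docking proteins such as IRS1 on the PI3K and Akt kinases and on MAP kinases. In the fluid around cells most IGF is held by the IGF binding proteins, which can keep it from the receptor or carry it to it. Proteases such as PAPP-A, the product of Pappa, cut some binding proteins, IGFBP4 above all, and set IGF free. Fibroblasts are a known local source of IGF1 and of binding proteins.

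Gli1 and Ptch1, direct targets of hedgehog signaling, checked the treatment. Gli1 was at 139 to 151 FPKM in NIH-3T3 with SHHN and 0.0840 to 0.180 FPKM in NIH-3T3 control, and at 113 to 129 FPKM in MLg with SHHN and 0.414 to 0.906 FPKM in MLg control. Ptch1 was at 113.7 to 160.1 FPKM in NIH-3T3 with SHHN and 2.24 to 2.65 FPKM in NIH-3T3 control. In MLg it was at 244.5 to 285.8 FPKM with SHHN and 2.32 to 3.68 FPKM in control. FPKM, fragments scaled by transcript length and library size, is a level per length. The files give no read counts, so the depth behind each value is unknown. Fibroblast markers were present in all groups (8 of 8). The summed FPKM of these markers was 9149 to 10790 in NIH-3T3 with SHHN and 13610 to 15330 in NIH-3T3 control, where 6 of 8 fell with SHHN, and 8821 to 10670 in MLg with SHHN and 9488 to 11050 in MLg control, where 2 of 8 fell (Pdgfra and Pdgfrb). The 4 smooth muscle markers summed to 1.05 to 1.42 FPKM in NIH-3T3 with SHHN and 2.92 to 4.05 FPKM in NIH-3T3 control, and to 13.5 to 15.7 FPKM in MLg with SHHN and 16.4 to 44.4 FPKM in MLg control. Actg2, which made up most of that sum, fell in both lines. Epithelial markers (5) summed to at most 0.704 FPKM and leukocyte markers (5) to at most 1.74 FPKM, with Epcam, Krt18, Adgre1 and Cd3e at 0 in all groups. The 5 endothelial markers summed to 6.73 to 25.3 FPKM in NIH-3T3 with SHHN and 5.75 to 7.93 FPKM in NIH-3T3 control. In MLg they summed to 5.78 to 6.51 FPKM with SHHN and 0.101 to 0.154 FPKM in control. Cdh5 rose on the log2 scale by 3.72 in NIH-3T3 and by 3.43 in MLg. It was below 0.5 FPKM in every control library and was tested only through SHHN libraries, so no p-value is given. Tek rose by 1.38 in MLg (limma adjusted p = 0.00139) and was not called in NIH-3T3 (0.25, adjusted p = 0.517). Emcn was at 0 throughout and Pecam1 and Kdr stayed near 0. The 6 proliferation markers rose in both lines, with sums of 250 to 285 FPKM in NIH-3T3 with SHHN and 48.6 to 68.5 FPKM in NIH-3T3 control, and of 390 to 474 FPKM in MLg with SHHN and 65.3 to 94.9 FPKM in MLg control. These shifts moved with the member changes described here, and their part in them was not tested. In bulk samples, fewer cells that express a gene and less RNA per cell cannot be told apart.

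One library stood apart. NIH-3T3 control replicate 2 had the highest FPKM total (659862) and the fewest genes above 0 (13401). Against the mean of its group, genes with transcripts of at least 7000 bases sat lower in it by a median of -0.34 on the log2 scale, and genes of at most 1500 bases sat higher by 0.21. Among the members, Igf1, Igf1r, Irs1 and Pappa have longest transcripts of 7052, 11409, 9144 and 11027 bases, and all were lowest of the 3 controls in this library. Igfbp6 and Igfbp7, with 1112 and 1200 bases, were highest in it. Where leaving this library out changes the call of a member, the value is given. MLg control replicate 2 had a smaller shift in the same directions, by -0.16 for the long genes and 0.10 for the short ones. MLg control replicate 3 had the opposite shift (0.17 and -0.08).

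Igfbp4, Igfbp6 and Igfbp7 were the binding proteins that rose in both lines, so the 250 bases before their RefSeq starts (GRCm38.p6) are shown, each 5′ to 3′ on the strand of the gene. Capitals mark every match, on either strand, to TATAAA, the core of a TATA box, or to GGGCGG, a GC box; neither motif overlaps the other. The windows are chr11:99040994-99041243 on the plus strand for Igfbp4, chr15:102143936-102144185 on the plus strand for Igfbp6 and chr5:77408046-77408295 on the minus strand for Igfbp7.
Igfbp4: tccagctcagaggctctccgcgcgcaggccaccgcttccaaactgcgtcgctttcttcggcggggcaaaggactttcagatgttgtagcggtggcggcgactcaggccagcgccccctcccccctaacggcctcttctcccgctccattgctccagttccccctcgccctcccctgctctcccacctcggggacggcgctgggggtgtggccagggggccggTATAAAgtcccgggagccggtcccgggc
Igfbp6: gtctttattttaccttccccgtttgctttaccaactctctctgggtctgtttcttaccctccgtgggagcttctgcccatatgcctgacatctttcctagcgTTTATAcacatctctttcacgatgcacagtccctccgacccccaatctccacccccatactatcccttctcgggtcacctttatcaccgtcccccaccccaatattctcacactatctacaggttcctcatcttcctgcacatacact
Igfbp7: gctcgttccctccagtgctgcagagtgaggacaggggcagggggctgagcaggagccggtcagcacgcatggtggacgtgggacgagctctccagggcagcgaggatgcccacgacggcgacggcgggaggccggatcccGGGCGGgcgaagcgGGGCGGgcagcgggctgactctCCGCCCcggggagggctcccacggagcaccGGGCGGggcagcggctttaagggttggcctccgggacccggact
The 3 windows differ in makeup. Their GC content was 69.2% for Igfbp4, 49.6% for Igfbp6 and 74.0% for Igfbp7, against a median of 52.4% over all promoters. In Igfbp4 the TATAAA lies 28 to 23 bases before the start, and in Igfbp6 it lies on the other strand at 148 to 143 bases. The Igfbp7 window holds 4 GC boxes and no TATAAA. Over 32851 promoters of 27025 genes, 12.4% hold TATAAA and 32.7% hold GGGCGG. The motif of the GLI factors, which carry the hedgehog signal to genes, was searched as GACCACCCA on both strands with at most 1 mismatch; 5.79% of promoters hold it, and none of the 9 members with an entry did. A match is a description, and its absence says only that these letters are not in this window. Pappa is the member without an entry.

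In NIH-3T3 cells, 4 of the 9 members tested rose with SHHN (Igfbp4, Igfbp7, Irs1 and Igfbp6), 2 fell (Pappa and Igfbp5) and Igf1, Igf1r and Igfbp3 were not called; Igfbp2 was too low to test. Over all 12379 genes tested, 16.6% rose and 14.8% fell. In MLg cells, 4 of the 9 rose (Igfbp7, Igfbp4, Igfbp6 and Igfbp3), 2 fell (Igf1 and Irs1), and Igf1r, Igfbp5 and Pappa were not called, while 12.8% of all genes rose and 10.0% fell. Genes were tested where at least 3 libraries reached 0.5 FPKM, as log2(FPKM + 0.5), with limma, and called at a Benjamini-Hochberg adjusted p under 0.05 over all genes tested. A log2 fold change on this scale understates the change of low genes. Igfbp3 passed the filter only through the 3 MLg libraries with SHHN, so it had to differ, and it adds nothing to the count.

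**Figure D1:**
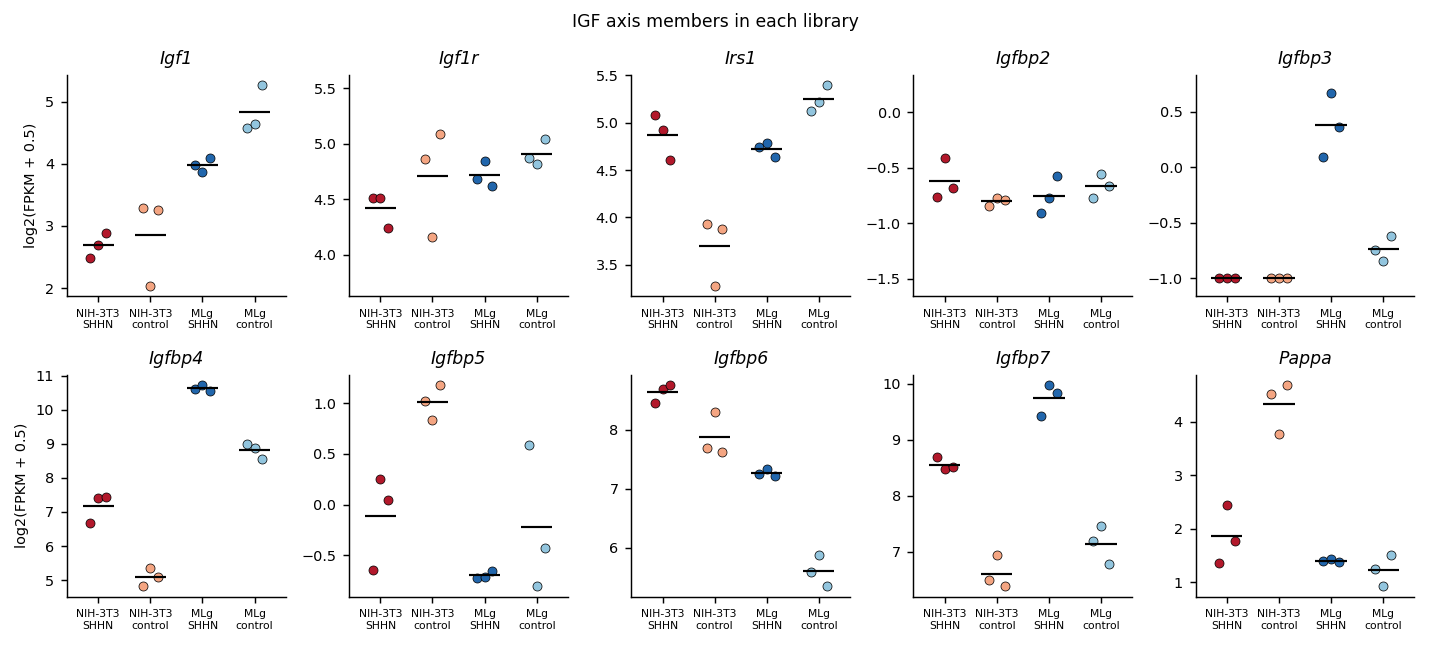
Level of each of the 10 genes as log2(FPKM + 0.5) in every library (points) with the group mean (line), by line and treatment, each panel on its own axis. Igfbp4, Igfbp6 and Igfbp7 are higher with SHHN in both lines with no overlap of groups, while Irs1 is higher in NIH-3T3 and lower in MLg.

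Igfbp4, the binding protein that PAPP-A cuts, lies on chromosome 11 at 99041244 to 99054392 on the plus strand (GRCm38, GENCODE M21). It was at 101, 170 and 173 FPKM in NIH-3T3 with SHHN and at 27.7, 40.8 and 33.7 FPKM in NIH-3T3 control. In MLg it was at 1552, 1692 and 1508 FPKM with SHHN and at 509, 473 and 376 FPKM in control. All SHHN libraries were above all controls of their line, and every MLg library was above every NIH-3T3 library. Igfbp4 rose by 2.08 ± 0.20 (log2, SE) in NIH-3T3 (limma adjusted p = 3.12e-06) and by 1.82 ± 0.20 in MLg (adjusted p = 1.53e-05). Between the lines the effect differed by 0.26 (95% interval -0.35 to 0.88, adjusted p = 0.584), which was not called. By mean FPKM it ranked 453rd of all genes in NIH-3T3 with SHHN and 2497th in NIH-3T3 control, and 39th in MLg with SHHN and 152nd in MLg control.

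Igfbp7 encodes a secreted protein with low affinity for IGF that also sits on vessel walls and basement membranes. It lies on chromosome 5 at 77349240 to 77408041 on the minus strand. NIH-3T3 libraries held 411, 354 and 364 FPKM with SHHN and 89.2, 122 and 82.6 FPKM in control, and MLg libraries held 688, 1008 and 911 FPKM with SHHN and 146, 174 and 109 FPKM in control. Neither line showed an overlap between its groups. The log2 fold change was 1.95 ± 0.19 in NIH-3T3 (adjusted p = 4.02e-06) and 2.61 ± 0.19 in MLg (adjusted p = 5.31e-07). The effect in NIH-3T3 was lower than in MLg by a difference of -0.65 (95% interval -1.25 to -0.06) with an adjusted p of 0.140, which quantile normalization turned to a call (0.0277). Polr2b, an RNA polymerase II subunit gene on the opposite strand that overlaps Igfbp7, stayed at or below 26.7 FPKM, with overlapping groups in both lines. The sources used here do not say whether counting used strand.

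Igfbp6, the binding protein that prefers IGF2 to IGF1, lies on chromosome 15 at 102144362 to 102149511 on the plus strand. Its level was 352, 410 and 433 FPKM in NIH-3T3 with SHHN and 205, 316 and 196 FPKM in NIH-3T3 control, where the value of 316 is that of replicate 2. The MLg libraries had 152, 162 and 148 FPKM with SHHN and 47.9, 58.5 and 40.2 FPKM in control. Here NIH-3T3 was the line with more transcript in either condition, and treated libraries were above controls in both lines. Igfbp6 rose by 0.76 ± 0.18 in NIH-3T3 (adjusted p = 0.0049) and by 1.66 ± 0.18 in MLg (adjusted p = 1.12e-05). The difference of -0.90 ± 0.25 was called at an adjusted p of 0.0316, and was lost without any of 7 single libraries (0.0584 to 0.0708), with no filter on low genes (0.0567) and without both NIH-3T3 libraries numbered 2 (0.0529).

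Igfbp3, Igfbp5 and Igfbp2 were low in both lines. Igfbp3, the main carrier of IGF in serum (chromosome 11, 7206086 to 7213923, minus strand), was listed at 0 in all 6 NIH-3T3 libraries. In MLg it was at 0.567, 1.09 and 0.789 FPKM with SHHN and at 0.0941, 0.0572 and 0.150 FPKM in control, a ratio of mean FPKM of 8.13 and a log2 fold change of 1.12 ± 0.16. Its call was fixed by the filter, which it passed only through the MLg libraries with SHHN, so no p-value is given. No fold is given against NIH-3T3, where the gene was listed at 0. Its neighbour Igfbp1, 3539 bases away with no coding gene between, was at 0.156 to 0.282 FPKM in MLg with SHHN and at 0 to 0.0521 FPKM in MLg control, below the filter.

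Igfbp5 (chromosome 1, 72857932 to 72874884, minus strand) is a binding protein that attaches to matrix and is also cut by PAPP-A in humans. In NIH-3T3 it was at 0.140, 0.689 and 0.534 FPKM with SHHN and at 1.53, 1.28 and 1.77 FPKM in control. Treated and control groups did not overlap, and Igfbp5 fell by 1.13 ± 0.30 on the log2 scale (adjusted p = 0.0121); without SHHN replicate 1, the lowest library, the value was -0.86 with an adjusted p of 0.0587. MLg libraries held 0.106, 0.108 and 0.134 FPKM with SHHN and 1.00, 0.0712 and 0.241 FPKM in control. MLg control replicate 1 lay far above the other MLg controls, and the log2 fold change of -0.48 (95% interval -1.14 to 0.17, adjusted p = 0.307) was not called. The difference between lines was -0.64 (95% interval -1.57 to 0.28, adjusted p = 0.357). Igfbp2, which lies 5457 bases from Igfbp5 with the ends of both genes facing, was between 0.0322 and 0.253 FPKM over all 12 libraries and was not tested.

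Together the 6 binding-protein members reached a summed level of 923 ± 54.2 FPKM in NIH-3T3 with SHHN and 373 ± 93.1 FPKM in NIH-3T3 control, and 2607 ± 238 FPKM in MLg with SHHN and 645 ± 103 FPKM in MLg control (SD, n = 3 each). This is a description with no test. It made up 0.178% of all FPKM in NIH-3T3 with SHHN and 0.0611% in NIH-3T3 control, and 0.521% in MLg with SHHN and 0.125% in MLg control. The makeup differed by line. In NIH-3T3 the share of Igfbp6 in the sum was 43.1% with SHHN and 63.9% in control, that of Igfbp7 was 41.0% with SHHN and 26.4% in control, and that of Igfbp4 was 15.9% with SHHN and 9.26% in control. In MLg Igfbp4 held 60.9% with SHHN and 70.3% in control, Igfbp7 held 33.2% with SHHN and 22.1% in control, and Igfbp6 held 5.92% with SHHN and 7.57% in control. The share of Igfbp7 was thus higher with SHHN in both lines, with no overlap of the 3 libraries.

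**Figure D2:**
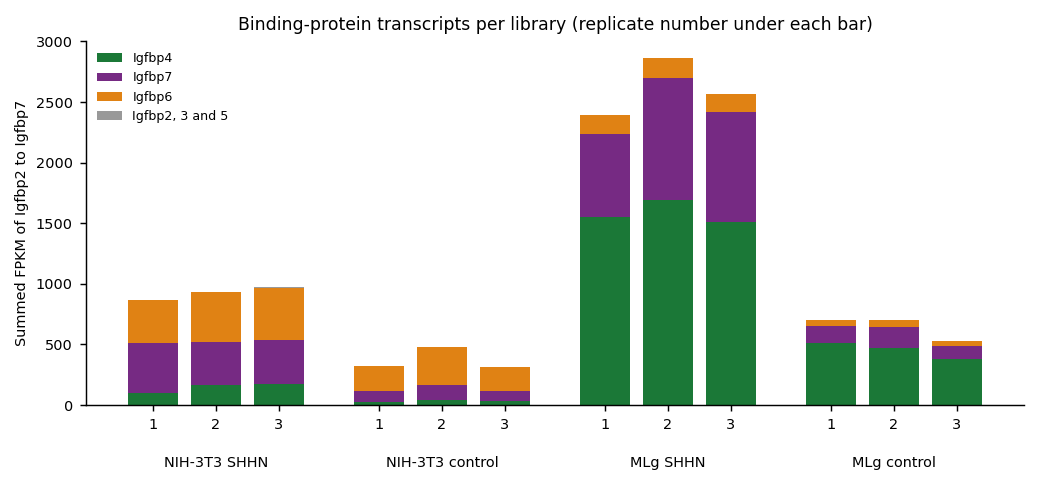
Summed FPKM of Igfbp2 to Igfbp7 in each library, stacked by gene, for SHHN and control of each line. Sums run from 864 to 970 in NIH-3T3 with SHHN and 314 to 480 in NIH-3T3 control, and from 2392 to 2862 in MLg with SHHN and 526 to 706 in MLg control; Igfbp2, Igfbp3 and Igfbp5 are too low to be seen.

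Pappa, the metalloprotease gene, lies on chromosome 4 at 65124174 to 65357509 on the plus strand. NIH-3T3 libraries with SHHN had 2.07, 4.92 and 2.93 FPKM and NIH-3T3 controls had 22.5, 13.2 and 25.2 FPKM, while MLg libraries had 2.12, 2.19 and 2.09 FPKM with SHHN and 1.89, 1.39 and 2.33 FPKM in control. NIH-3T3 control lay above the other 3 groups with no overlap, and its lowest library was replicate 2. In NIH-3T3 Pappa fell by 2.47 ± 0.27 on the log2 scale (adjusted p = 1.02e-05), the widest change of a member there. In MLg the log2 fold change was 0.17 (95% interval -0.42 to 0.75, adjusted p = 0.726). The effects differed by -2.64 ± 0.38 (adjusted p = 0.000566). The ratio of Igfbp4 to Pappa, both per length, was 47.5 ± 12.3 in NIH-3T3 with SHHN and 1.89 ± 1.05 in NIH-3T3 control, and 743 ± 26.8 in MLg with SHHN and 257 ± 89.4 in MLg control (SD, n = 3 each).

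**Figure D3:**
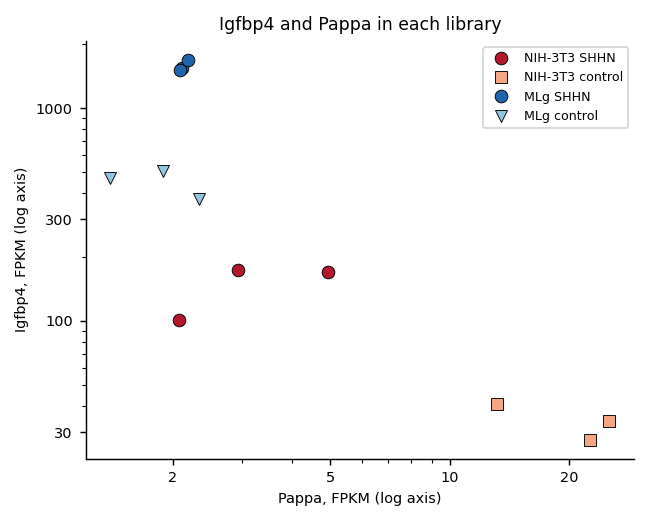
Igfbp4 against Pappa in each of the 12 libraries, in FPKM on log axes, by line and treatment. NIH-3T3 control sits at 13.2 to 25.2 FPKM of Pappa with 27.7 to 40.8 FPKM of Igfbp4, and the other groups lie below 5 FPKM of Pappa and above 100 FPKM of Igfbp4.

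Irs1, the docking protein under the receptor, lies on chromosome 1 at 82233101 to 82291416 on the minus strand, and it moved in opposite directions. NIH-3T3 libraries had 33.5, 29.9 and 23.8 FPKM with SHHN and 14.8, 9.18 and 14.2 FPKM in control. MLg libraries had 26.3, 27.1 and 24.5 FPKM with SHHN and 34.4, 36.8 and 41.8 FPKM in control. Groups did not overlap in either line, and with SHHN the lines overlapped. Irs1 rose by 1.18 ± 0.17 in NIH-3T3 (adjusted p = 0.000133) and fell by 0.53 ± 0.17 in MLg (log2, adjusted p = 0.0409), and the difference of 1.70 ± 0.24 was called (adjusted p = 0.000497). The call in MLg alone is weak. It was lost with the replicate block (0.0510), a fit that pairs the libraries of each line by replicate number. It was also lost when each of the 6 MLg libraries was left out (0.0567 to 0.133) or NIH-3T3 SHHN replicate 2 was (0.0556), and with no filter (0.0678).

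Igf1, the ligand, lies on chromosome 10 at 87858265 to 87937042 on the plus strand. In MLg it was at 15.3, 14.1 and 16.5 FPKM with SHHN and at 23.4, 24.4 and 38.2 FPKM in control, with no overlap. It fell by 0.85 ± 0.28 on the log2 scale (adjusted p = 0.0461). That call was lost in 11 of 24 alternatives, among them each of the 6 MLg libraries left out (0.0552 to 0.164) and each NIH-3T3 SHHN library left out (0.0542 to 0.0614). NIH-3T3 libraries held 5.12, 6.00 and 6.88 FPKM with SHHN and 9.32, 3.59 and 9.03 FPKM in control, where the 3.59 of replicate 2 is below all treated libraries and the other controls are above them. The log2 fold change there was -0.17 (95% interval -0.78 to 0.44, adjusted p = 0.702), and -0.58 with a call (0.0302) without that library. The difference between lines was 0.68 (95% interval -0.19 to 1.55, adjusted p = 0.294).

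Igf1r, the receptor, lies on chromosome 7 at 67952827 to 68233668 on the plus strand and had the narrowest range of group means of the 9 tested members. It was at 22.3, 22.2 and 18.4 FPKM in NIH-3T3 with SHHN and at 28.7, 17.3 and 33.6 FPKM in NIH-3T3 control. MLg libraries were at 25.2, 28.2 and 24.0 FPKM with SHHN and at 28.8, 27.7 and 32.4 FPKM in control. Groups overlapped in both lines. Neither line had a called change, with log2 values of -0.29 (95% interval -0.70 to 0.13, adjusted p = 0.285) in NIH-3T3 and -0.20 (95% interval -0.61 to 0.22, adjusted p = 0.532) in MLg. Without NIH-3T3 control replicate 2, Igf1r was called lower in NIH-3T3 (-0.56, adjusted p = 0.00507). The difference between lines was -0.09 (95% interval -0.67 to 0.49, adjusted p = 0.863).

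**Figure D4:**
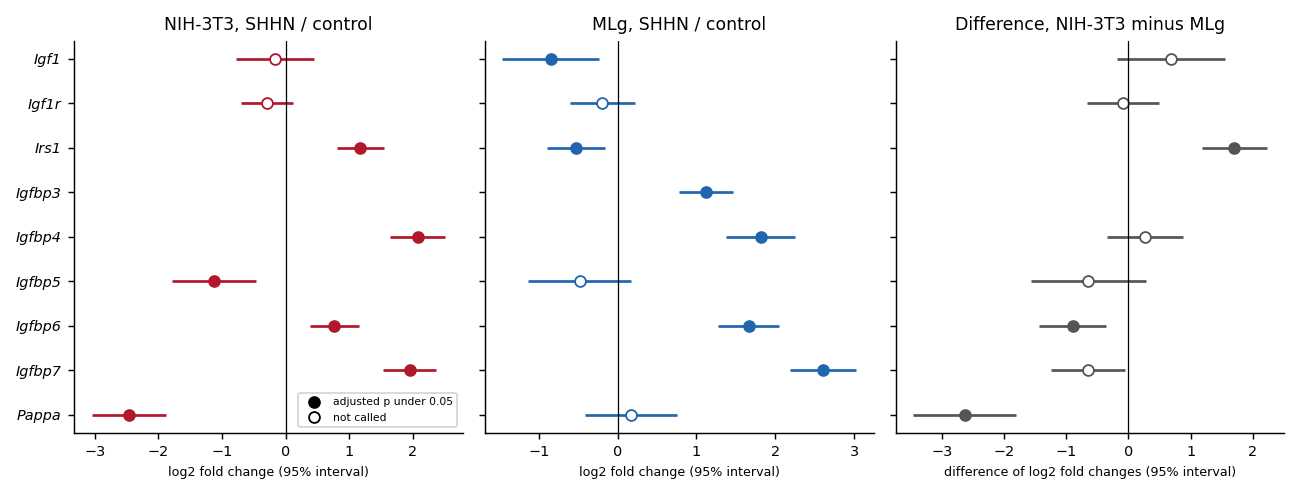
Log2 fold changes of SHHN over control in each line, and their difference as NIH-3T3 minus MLg, with 95% intervals, for the tested genes; filled points have an adjusted p under 0.05. Igfbp3 is drawn for MLg alone, as it was listed at 0 in NIH-3T3, and Irs1 and Pappa have the widest differences.

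In the test of the difference itself, NIH-3T3 minus MLg, Irs1 was called higher and Igfbp3, Igfbp6 and Pappa were called lower. Of all genes tested, 7.48% were called higher and 5.95% lower. The Igfbp3 call rests on NIH-3T3 libraries all listed at 0 and on a filter passed only through the MLg libraries with SHHN.

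The lines also differed at rest. In control medium, Igfbp4 (log2 -3.72, adjusted p = 3.25e-09), Igf1 (-1.97, adjusted p = 5.84e-05), Irs1 (-1.55, adjusted p = 4.68e-06) and Igfbp7 (-0.54, adjusted p = 0.0332) were lower in NIH-3T3 than in MLg. Pappa (3.10, adjusted p = 4.68e-07), Igfbp6 (2.26, adjusted p = 1.64e-07) and Igfbp5 (1.23, adjusted p = 0.00419) were higher. Across all genes 24.4% were higher and 25.7% lower in NIH-3T3. The ratio of mean FPKM in NIH-3T3 control over MLg control was 0.0753 for Igfbp4 and 10.8 for Pappa. The Igfbp7 groups overlapped, and its call was lost in 6 of 24 alternatives, to an adjusted p of at most 0.149.

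Under SHHN the order of the lines held for Igfbp4 (-3.45, adjusted p = 7.77e-09), Igf1 (-1.29, adjusted p = 0.00207), Igfbp7 (-1.19, adjusted p = 0.000203) and Igfbp6 (1.36, adjusted p = 2.81e-05). Across all genes 22.1% were higher and 24.8% lower in NIH-3T3. Igfbp3 was also called lower, but it passed the filter only through the MLg libraries with SHHN, so it had to differ. Irs1 (0.15, 95% interval -0.22 to 0.52), Pappa (0.46, -0.12 to 1.05), Igfbp5 (0.58, -0.07 to 1.24) and Igf1r (-0.30, -0.71 to 0.12) were not called. For 3 of these the outcome depended on the processing. Pappa was called with the length and GC correction (0.65, adjusted p = 0.00848; 0.0120 with the replicate block). Igfbp5 did not overlap between the lines, with a ratio of mean FPKM of 3.92 under SHHN and 3.48 in control, and was called with quantile normalization (adjusted p = 0.0366), without NIH-3T3 SHHN replicate 1 (0.0432) and without MLg control replicate 1 (0.0415). Igf1r did not overlap either, and was called with the 6 SHHN libraries alone in the fit (adjusted p = 0.0490) and without NIH-3T3 control replicate 2 (0.0495). These comparisons share libraries with the SHHN comparisons.

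The order of the groups by mean level was not shared by the members (SD, n = 3 each). Igfbp4 averaged 148 ± 40.5 FPKM in NIH-3T3 with SHHN and 34.1 ± 6.59 in NIH-3T3 control, and 1584 ± 95.7 in MLg with SHHN and 453 ± 68.8 in MLg control, so both MLg groups came above both NIH-3T3 groups with no overlap. Igfbp6 averaged 398 ± 41.8 FPKM in NIH-3T3 with SHHN and 239 ± 66.6 in NIH-3T3 control, and 154 ± 7.11 in MLg with SHHN and 48.8 ± 9.20 in MLg control, in falling order with no overlap. Igfbp7 averaged 376 ± 30.4 FPKM in NIH-3T3 with SHHN and 98.0 ± 21.1 in NIH-3T3 control, and 869 ± 164 in MLg with SHHN and 143 ± 32.6 in MLg control. For this gene both SHHN groups came above both control groups, and only the control groups overlapped.

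For Irs1 the means were 29.1 ± 4.88 FPKM in NIH-3T3 with SHHN and 12.7 ± 3.08 in NIH-3T3 control, and 26.0 ± 1.35 in MLg with SHHN and 37.7 ± 3.73 in MLg control. MLg control was highest and NIH-3T3 control lowest, and the SHHN groups between them overlapped. Pappa averaged 3.31 ± 1.46 FPKM in NIH-3T3 with SHHN and 20.3 ± 6.33 in NIH-3T3 control, and 2.13 ± 0.0516 in MLg with SHHN and 1.87 ± 0.468 in MLg control; all groups but NIH-3T3 control overlapped. Igf1 averaged 6.00 ± 0.878 FPKM in NIH-3T3 with SHHN and 7.31 ± 3.23 in NIH-3T3 control, and 15.3 ± 1.21 in MLg with SHHN and 28.7 ± 8.27 in MLg control, in rising order, where only the NIH-3T3 groups overlapped.

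The genes whose log2 levels ran most like those of the 3 members with the widest range of group means were found by Pearson correlation over the 12 libraries, which share line and treatment, so r is a description. Nearest to Igfbp4 were Pltp (r = 0.992), a phospholipid transfer protein, Angpt4 (0.989), an angiopoietin, and Stra13 (0.987). Pltp averaged 39.6 FPKM in NIH-3T3 with SHHN and 16.2 in NIH-3T3 control, and 179 in MLg with SHHN and 69.6 in MLg control. Nearest to Igfbp7 were Pkdcc (0.994), a secreted kinase, Hirip3 (0.987) and Pdgfa (0.984), a ligand of PDGF receptors. Pkdcc averaged 94.9 FPKM in NIH-3T3 with SHHN and 23.4 in NIH-3T3 control, and 226 in MLg with SHHN and 40.5 in MLg control. Nearest to Pappa were Tgfbr3 (0.987), the co-receptor betaglycan, Fam135b (0.986) and Ppl (0.985), a desmosomal plakin. Fam135b averaged 1.16 FPKM in NIH-3T3 control and at most 0.134 in any other group, and Ppl 0.704 and at most 0.109. Both could pass the filter only through NIH-3T3 control, the group where Pappa is high, so the filter favoured a high r. Tgfbr3 averaged 46.1 FPKM in NIH-3T3 with SHHN and 100 in control, and 36.0 in MLg with SHHN and 37.4 in control.

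Around the 10 members, a list of 50 other genes of the pathway was read, of which 47 were tested. With SHHN, 8 rose and 12 fell in NIH-3T3, where 16.6% of all genes rose and 14.8% fell, and 2 rose and 11 fell in MLg, where 12.8% rose and 10.0% fell. The share that rose in NIH-3T3 was thus near that of all genes. Among 10 binding-protein proteases and their inhibitors none rose in either line, 5 fell in NIH-3T3 (median log2 -0.60, all genes -0.01) and 7 fell in MLg (median -0.91, all genes 0.00). One of these, Htra3, a secreted serine protease, reached 0.5 FPKM in controls alone, so it had to differ. Its level was 0.0697, 0.0571 and 0.224 FPKM in NIH-3T3 with SHHN and 0.729, 0.977 and 0.978 FPKM in NIH-3T3 control, and 0.310, 0.189 and 0.232 FPKM in MLg with SHHN and 1.27, 1.33 and 1.07 FPKM in MLg control. Without Htra3, 4 of 9 fell in NIH-3T3 (median -0.47) and 6 of 9 in MLg (median -0.84). Prss23, a serine protease, was at 43.3, 73.9 and 88.2 FPKM in NIH-3T3 with SHHN and at 130, 127 and 125 FPKM in NIH-3T3 control, and at 39.4, 40.3 and 37.8 FPKM in MLg with SHHN and 101, 204 and 206 FPKM in MLg control. It fell by 0.95 ± 0.26 in NIH-3T3 (adjusted p = 0.0141; -0.65 and 0.0667 without SHHN replicate 1, the lowest library) and by 2.03 ± 0.26 in MLg (adjusted p = 6.06e-05). Htra1, a protease of the same family as Htra3, was a gene of MLg, at 35.8, 47.7 and 38.5 FPKM with SHHN and 210, 198 and 162 FPKM in control, and in NIH-3T3 it was at 0.147, 0.322 and 0.290 FPKM with SHHN and 0.338, 0.729 and 0.586 FPKM in control (log2 -0.47, adjusted p = 0.0514). Those groups did not overlap, and Htra1 was called lower in NIH-3T3 in 10 of 24 alternatives, among them the replicate block (adjusted p = 0.0277) and a pseudocount of 0.1 (-0.87, adjusted p = 0.0163). In MLg Htra1 fell by 2.21 ± 0.17 (adjusted p = 7.19e-07), and the difference between lines was 1.74 ± 0.24 (adjusted p = 0.000432).

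The adaptor list held 4 that rose and 1 that fell of 10 in NIH-3T3 (all genes 16.6% and 14.8%), and 2 that rose and 1 that fell in MLg (all genes 12.8% and 10.0%), so falls in MLg were at the share of all genes. Grb14, which binds and dampens insulin-family receptors, was at 46.0, 38.1 and 41.3 FPKM in NIH-3T3 with SHHN and 12.2, 12.8 and 13.9 FPKM in NIH-3T3 control, and at 9.43, 8.57 and 9.33 FPKM in MLg with SHHN and 2.30, 2.64 and 2.56 FPKM in MLg control. It rose by 1.65 ± 0.11 in NIH-3T3 (adjusted p = 1.11e-07) and by 1.68 ± 0.11 in MLg (adjusted p = 2.24e-07). Gab1, a docking protein, rose by 1.49 ± 0.12 in NIH-3T3 (adjusted p = 5.08e-07) and by 1.26 ± 0.12 in MLg (adjusted p = 3.94e-06). Socs2, a suppressor of growth hormone signaling, fell by 1.82 ± 0.25 in NIH-3T3 (adjusted p = 8.62e-05) and by 1.52 ± 0.25 in MLg (adjusted p = 0.000529). Of the other ligand and receptors, Igf2, Igf2r, Insr and Ghr, Insr fell in NIH-3T3 (-0.60, adjusted p = 0.0412) and no other call was made in either line. Igf2, the other IGF ligand, was at 2203 ± 1040 FPKM in NIH-3T3 with SHHN and 1460 ± 143 FPKM in NIH-3T3 control, and 49.1 ± 5.20 FPKM in MLg with SHHN and 40.9 ± 11.7 FPKM in MLg control (SD, n = 3 each). The NIH-3T3 libraries with SHHN were far apart, at 1030, 2567 and 3011 FPKM of Igf2. Its log2 fold change there was imprecise, at 0.46 with an SE of 0.31 (adjusted p = 0.298). Igf2 was above Igf1 in every library but MLg control replicate 3, with 34.0 FPKM of Igf2 and 38.2 FPKM of Igf1.

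Of 20 genes of the PI3K, Akt, mTOR and FoxO step, 4 rose and 4 fell in NIH-3T3, and none rose and 2 fell in MLg. These shares were near those of all genes in NIH-3T3 (16.6% and 14.8%) and, for falls, in MLg (10.0%). In the test of the difference 5 were called, all higher in NIH-3T3 minus MLg (all genes 7.48% higher). The median difference of the 20 genes lay the other way, at -0.21 (all genes -0.02), so these calls do not stand for the list as a whole. Foxo3, a forkhead factor that Akt restrains, had a log2 fold change of 0.53 in NIH-3T3 (adjusted p = 0.112; called without SHHN replicate 3, 0.0235, or control replicate 1, 0.0329) and fell by 1.07 ± 0.24 in MLg (adjusted p = 0.00490), a difference of 1.61 ± 0.34 (adjusted p = 0.00709). Its relative Foxo1 rose by 0.89 ± 0.16 in NIH-3T3 (adjusted p = 0.000742) and was at -0.07 in MLg (adjusted p = 0.796), a difference of 0.96 ± 0.22 (adjusted p = 0.0125). Foxo4 was at 0.20 in NIH-3T3 (adjusted p = 0.188) and fell by 0.48 ± 0.11 in MLg (adjusted p = 0.00556), a difference of 0.68 ± 0.15 (adjusted p = 0.0109). Akt1, the kinase, rose by 0.59 ± 0.13 in NIH-3T3 (adjusted p = 0.00374) with a difference of 0.64 ± 0.19 (adjusted p = 0.0376). Pik3r1, the regulatory subunit of PI3K, rose by 0.64 ± 0.15 in NIH-3T3 (adjusted p = 0.00524) with a difference of 0.70 ± 0.21 (adjusted p = 0.0432), which the replicate block took to 0.0571. The last 2 differences were lost without several single libraries, to an adjusted p of up to 0.0986 for Akt1 and 0.102 for Pik3r1.

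**Figure D5:**
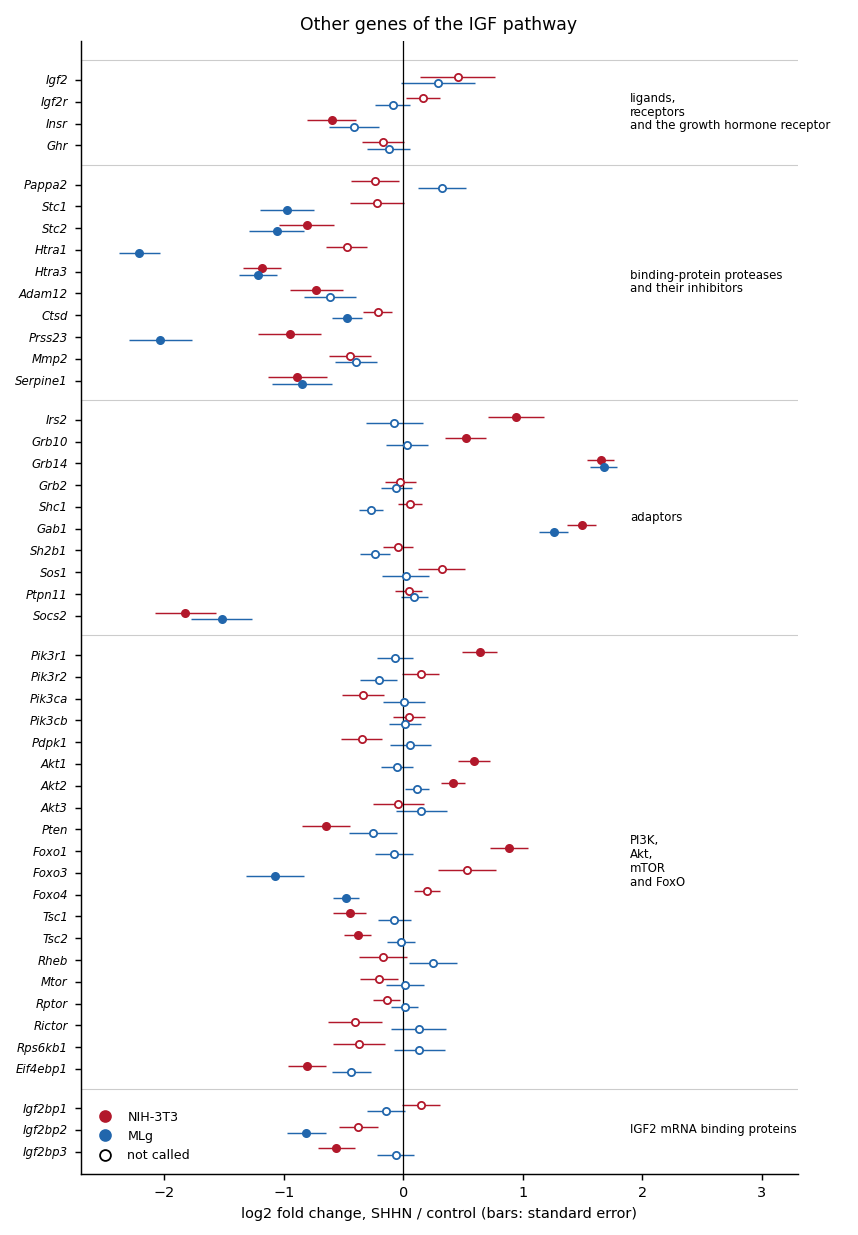
Log2 fold change of SHHN over control for the 47 tested pathway genes that are not members, in NIH-3T3 (red) and MLg (blue), with standard errors; open points were not called. The 10 proteases and inhibitors include 5 that fell in NIH-3T3 and 7 that fell in MLg, Htra3 among both, and Grb14 and Gab1 rose in both.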

How the data were processed

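RNA-seq libraries of 2 mouse fibroblast lines, 3 for each of 4 groups, were read from a table of FPKM that the authors deposited, 1 column per library. The submitters' processing notes name bcl2fastq, TopHat2 2.0.12, Cufflinks 2.2.1 and the build mm10; the annotation, strand and any further scaling are not given in the sources used here. Values were taken as log2(FPKM + 0.5). Only genes that reached 0.5 FPKM in 3 or more of the 12 libraries were fitted with limma 3.58.1 in R 4.3.3 (4 group means, trended empirical Bayes, two-sided), with Benjamini-Hochberg adjustment over the 12379 genes tested and a threshold of 0.05. The procedure was tested on simulated data.

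FPKM carry no depth, so precision rests on 3 libraries a group. All 9 tested members are named in every comparison, and Igfbp2 was not tested. Of the pathway list, the 4 called genes with the largest change in each SHHN comparison and every gene called in the difference are named. Gli1 and Ptch1 are named too, and for 3 members the 3 genes most alike (genes without a proper name left out). Insr, Igf2, Igfbp1, Polr2b, Pdgfra, Pdgfrb, Actg2, Cdh5 and Tek, outside this rule, were added after their values were seen. The members and lists were chosen with earlier results of these data known. Positions and lengths are from GENCODE M21 (GRCm38) and promoters from RefSeq, matched by symbol.

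In MLg, deviations from the group mean correlated between libraries with the same replicate number at 0.132, 0.157 and 0.241. In NIH-3T3 the values were -0.001, -0.101 and 0.027. Between the lines, in order of number, they were -0.072, 0.445 and 0.395 for controls and -0.011, 0.092 and 0.24 for SHHN libraries. The reported fit ignores the replicate numbers, so its p-values are not paired. Only the replicate block used them, as pairs within each line, or as a term shared by the lines where these were compared. Other pseudocounts, filters, scalings, libraries and a replicate block were tried; the length and GC correction and the fit without both NIH-3T3 libraries numbered 2 were chosen after seeing the data.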

Additional observations from a re-analysis of the deposited data

Results flagged for a closer look

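The SHHN effect differed between the lines, by the interaction test in limma with 3 libraries a group, for 3 members beside Igfbp3, for 6 of the 47 tested genes of the pathway list and for Gli1. Of all genes tested, 7.48% were called higher and 5.95% lower, so such calls were common outside the pathway too. The differences, NIH-3T3 minus MLg on the log2 scale, were 1.70 for Irs1, -0.90 for Igfbp6 and -2.64 for Pappa among the members. In the pathway list they were 1.74 for Htra1, 0.70 for Pik3r1, 0.64 for Akt1, 0.96 for Foxo1, 1.61 for Foxo3 and 0.68 for Foxo4. For Gli1 the difference was 1.04 (adjusted p = 0.00673), and no alternative was run for it. Gli1 control means, 0.131 FPKM in NIH-3T3 and 0.583 FPKM in MLg, lie below or near the pseudocount of 0.5. With SHHN its means were 147 FPKM in NIH-3T3 and 120 FPKM in MLg. Ptch1 went the other way, with a difference of -0.58 that was not called (adjusted p = 0.119). Igfbp3 was called too, but no value is given, since it was listed at 0 in all NIH-3T3 libraries. The differences of Igfbp6, Pik3r1 and Akt1 lost their calls under several alternatives, and those of the other 6 members and pathway genes named here (Irs1, Pappa, Htra1, Foxo1, Foxo3 and Foxo4) kept direction and call under all 23 alternatives run for them.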

How the results depend on the processing

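Of 69 gene results, 46 kept direction and side of the threshold under every alternative, and 6 changed sign under some alternative. The total numbers of genes called stayed within 1.5 times under the alternatives, except in the difference between lines, where 1662 genes were called against 2584 with the length and GC correction; leaving out 1 library gave 1093 (without MLg SHHN replicate 3) to 2345. By direction, the length and GC correction called 2200 genes higher and 2823 lower in NIH-3T3 (2059 and 1826 in the reported fit) and 1800 higher and 2042 lower in MLg (1580 and 1238), so the shares of all genes given in the report depend on scaling. Sign changes were all of uncalled results, and the cause was not tested. With 1 library left out, the log2 value of Igf1 in NIH-3T3 ran from -0.58 to 0.049 (above 0 without control replicate 1 or 3), that of Pik3r1 in MLg from -0.16 to 0.022, that of Akt1 in MLg from -0.12 to 0.031, the Igf1r difference from -0.37 to 0.10, and Igf1r between lines in control from -0.40 to 0.070 (above 0 without NIH-3T3 control replicate 2, and 0.070 without both NIH-3T3 libraries numbered 2). The Igfbp4 difference was -0.024 with quantile normalization. The length and GC correction made calls of Igf1r lower in NIH-3T3 (adjusted p = 0.0279) and MLg (0.0494), of Pik3r1 lower in MLg (0.0268), of Htra1 lower in NIH-3T3 (0.00442), of Pappa between lines under SHHN (0.00848), and of the differences of Igf1 (0.00392) and Igfbp7 (0.00387), and it ended the Akt1 difference (0.0519). The replicate block ended the MLg call of Irs1 (0.0510) and the Pik3r1 difference (0.0571).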
